A study of Mus musculus with 6 samples.

Results

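The endoplasmic reticulum (ER) is the compartment in which secreted and membrane proteins are folded, and 32 mouse genes of its folding machinery and of its stress response are described here in liver after carbon tetrachloride (CCl4). The set was given as a list of gene symbols, and no measured value enters the rule. It holds 8 chaperones and chaperone cofactors, 3 J-domain co-chaperones, 4 disulfide isomerases, 1 translocon subunit, 6 genes of ER-associated degradation, 3 stress sensors, 3 transcription factors and 4 genes linked to the factor ATF4. All 32 symbols were found by Ensembl identifier among 55802 rows of the deposited table, and all 32 passed the filter on low counts, with 15579 genes tested in all. Ddit3 matched 2 identifiers, and the one with counts was used. The libraries came from livers of wild-type C57BL/6 mice, 3 from mice given oil (control) and 3 from mice given CCl4, a solvent that hepatocytes convert to a radical and that injures the centre of the liver lobule. The series is titled as a fibrosis model, and its comparison asks how CCl4 changes liver transcripts. The sources used here give no dose, duration, age or sex, nor do they say that the libraries of a group are separate animals, so p-values measure only the spread between these libraries, which may be technical.

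Hepatocytes export large amounts of plasma protein, and the ER chaperones, above all BiP (the product of Hspa5), bind these chains until they fold. When unfolded chains accumulate, the membrane sensors IRE1 (Ern1), PERK (Eif2ak3) and ATF6 start the unfolded protein response. IRE1 splices the Xbp1 transcript, ATF6 is cut to release a transcription factor, and PERK slows translation while favouring that of ATF4, which in turn drives Ddit3 (CHOP), Trib3, Chac1 and Asns. Splicing of Xbp1, cleavage of ATF6 and phosphorylation of PERK are not visible in gene counts, so what follows is the level of each transcript only.

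The promoters of these genes are shown because the stress response acts on them through short shared motifs. Among the 32 genes, 28 had a RefSeq promoter in the table used (build GRCm38.p6, 250 bases before to 50 after the start), and Atf6, Derl1, Hyou1 and Manf did not. The ER stress element (ERSE, searched on both strands as CCAAT, any 9 bases, CCACG) is the site that cut ATF6 binds together with the factor NF-Y. It was found in 8 of the 28 promoters (28.6%), against 0.137% of the 27025 genes with a promoter in the table. All matches lie before the start, and Hsp90b1 has 2. Capitals mark the motif in each line, written 5′ to 3′ in the direction of the gene, and in the Hspa5 line they also mark TGACGTG, the core of the element bound by spliced XBP1 (found in 1 of the 28 promoters and 2.22% of all genes).
Hspa5, chr2:34771840-34772089, + strand: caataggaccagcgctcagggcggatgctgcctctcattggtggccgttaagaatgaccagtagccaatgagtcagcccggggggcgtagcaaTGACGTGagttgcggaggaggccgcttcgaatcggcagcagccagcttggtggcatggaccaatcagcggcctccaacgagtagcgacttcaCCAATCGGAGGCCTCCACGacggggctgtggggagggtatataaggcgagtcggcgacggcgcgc
Hsp90b1, chr10:86705513-86705676, - strand: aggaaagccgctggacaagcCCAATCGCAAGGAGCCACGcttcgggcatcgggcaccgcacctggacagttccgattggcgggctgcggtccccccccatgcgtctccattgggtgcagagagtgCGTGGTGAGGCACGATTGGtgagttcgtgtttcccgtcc
Creld2, chr15:88819500-88819558, + strand: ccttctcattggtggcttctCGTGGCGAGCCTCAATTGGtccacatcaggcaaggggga
Derl3, chr10:75893222-75893280, + strand: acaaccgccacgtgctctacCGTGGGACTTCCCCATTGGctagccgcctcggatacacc
Calr, chr8:84847055-84847113, - strand: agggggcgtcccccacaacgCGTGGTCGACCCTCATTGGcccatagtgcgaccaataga
Canx, chr11:50325780-50325838, - strand: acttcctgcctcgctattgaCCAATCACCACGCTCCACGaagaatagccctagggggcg
Dnajc3, chr14:118937807-118937865, + strand: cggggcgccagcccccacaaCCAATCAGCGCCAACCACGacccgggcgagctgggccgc
Pdia6, chr12:17266471-17266529, + strand: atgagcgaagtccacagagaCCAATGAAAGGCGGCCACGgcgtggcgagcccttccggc

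A related element, ERSE-II (ATTGG, any 1 base, CCACG, both strands), was found in 2 of the 28 promoters, Herpud1 and Dnajb11, and in 0.0444% of all genes; the Dnajb11 match lies after the start. The core of the element bound by ATF4 with a C/EBP partner (TGATGNAA, both strands) was found in Asns, Chac1, Herpud1 and Trib3, 4 of the 28, against 4.51% of all genes; the Trib3 match lies after the start. Herpud1 thus holds both kinds of match, the ERSE-II 42 to 52 bases and the ATF4 core 105 to 112 bases before its start. A match describes the letters in this window and nothing more.
Herpud1, ERSE-II, chr8:94386357-94386407, + strand: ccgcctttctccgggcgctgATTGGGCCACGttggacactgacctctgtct
Herpud1, ATF4 core, chr8:94386297-94386344, + strand: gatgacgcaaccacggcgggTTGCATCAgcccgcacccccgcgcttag
Asns, ATF4 core, chr6:7693210-7693252, - strand: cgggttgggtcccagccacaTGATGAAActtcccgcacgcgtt
Chac1, ATF4 core, chr2:119351029-119351076, + strand: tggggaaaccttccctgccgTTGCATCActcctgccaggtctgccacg

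Library totals ran from 18929972 to 20042731 counts, and the 32 genes took 0.708 to 0.785% of the counts in controls and 0.756 to 0.937% in CCl4 libraries. In bulk liver RNA, a change in the number of cells of a type and a change in RNA per cell cannot be told apart. All 10 macrophage markers and 9 of 10 fibroblast and stellate markers were higher after CCl4, with summed levels of 262 to 338 and 830 to 933 CPM (counts per 1000000) for the first and 326 to 392 and 1166 to 1283 CPM for the second, in control and CCl4 libraries. Summed hepatocyte markers overlapped between the groups, at 107178 to 113481 CPM and 104970 to 114092 CPM, with 1 of 10 higher and 3 lower. Plasma cells are rich in ER chaperones, and 8 of 10 of their markers were tested, of which 1 was called higher (Prdm1), with sums of 235 to 272 and 255 to 365 CPM. Sdc1, which other cells also express, made up most of that sum, with 181 to 232 CPM in controls and 205 to 247 CPM after CCl4. The immunoglobulin genes Igkc and Igha stood at 12.9 and 14.5 CPM in CCl4 replicate 1, 15.2 and 17.4 CPM in replicate 2 and 40.3 and 43.6 CPM in replicate 3. Not all immunoglobulin genes shared this order, as Ighm stood at 11.4 CPM in CCl4 replicate 1 and was lowest in replicate 3, at 9.92 CPM. Prdm1 was also lowest in CCl4 replicate 3, at 2.41 CPM. The highest plasma cell sum was that of CCl4 replicate 3, and Tnfrsf17 was at 0 in CCl4 replicates 1 and 2. Cholangiocyte markers were higher in 4 of 6 cases (50.6 to 94.3 and 253 to 336 CPM) and proliferation markers in 6 of 6 (10.6 to 14.6 and 79.8 to 166 CPM). Spp1 made up most of the cholangiocyte sum, with 41.8 to 76.3 CPM in controls and 224 to 303 CPM after CCl4. The lowest CCl4 value of the proliferation sum was again that of replicate 3. The part of these cell types in the results below was not tested.

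In the main edgeR fit, transcripts of 2 of the 3 stress sensors and 2 of the 3 transcription factors were lower after CCl4, and no chaperone was called. DESeq2 and limma-voom called Hspa5, Creld2 and Manf higher. Some other edgeR settings with all libraries called 1 or more chaperones, such as library size alone (3 higher). Of the 32 genes, 7 were called lower (Herpud1, Trib3, Ern1, Derl2, Xbp1, Atf6 and Atf4) and 1 higher (Sec61b) in the main fit, at an adjusted p of 0.05 in edgeR's quasi-likelihood test. Over all genes tested, 41.3% were called, 21.2% higher and 20.1% lower, so the share called lower was near the background and that called higher was below it. The median log2 fold change of the set, CCl4 over control, was -0.01, against 0.00 over all genes. Groups did not overlap in CPM for 14 of the 32, where 54.0% of all genes showed this. With upper quartile scaling 3 were higher and 6 lower (26.3% and 14.0% of all genes), and with library size alone 7 were higher and 5 lower (31.0% and 10.8%). Library size alone moved the median of all genes to 0.15 and that of the set to 0.14. DESeq2 called 4 higher and 7 lower (18.1% and 16.3% of all genes), and limma-voom called 4 and 8 (20.9% and 19.8%).

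**Figure D1:**
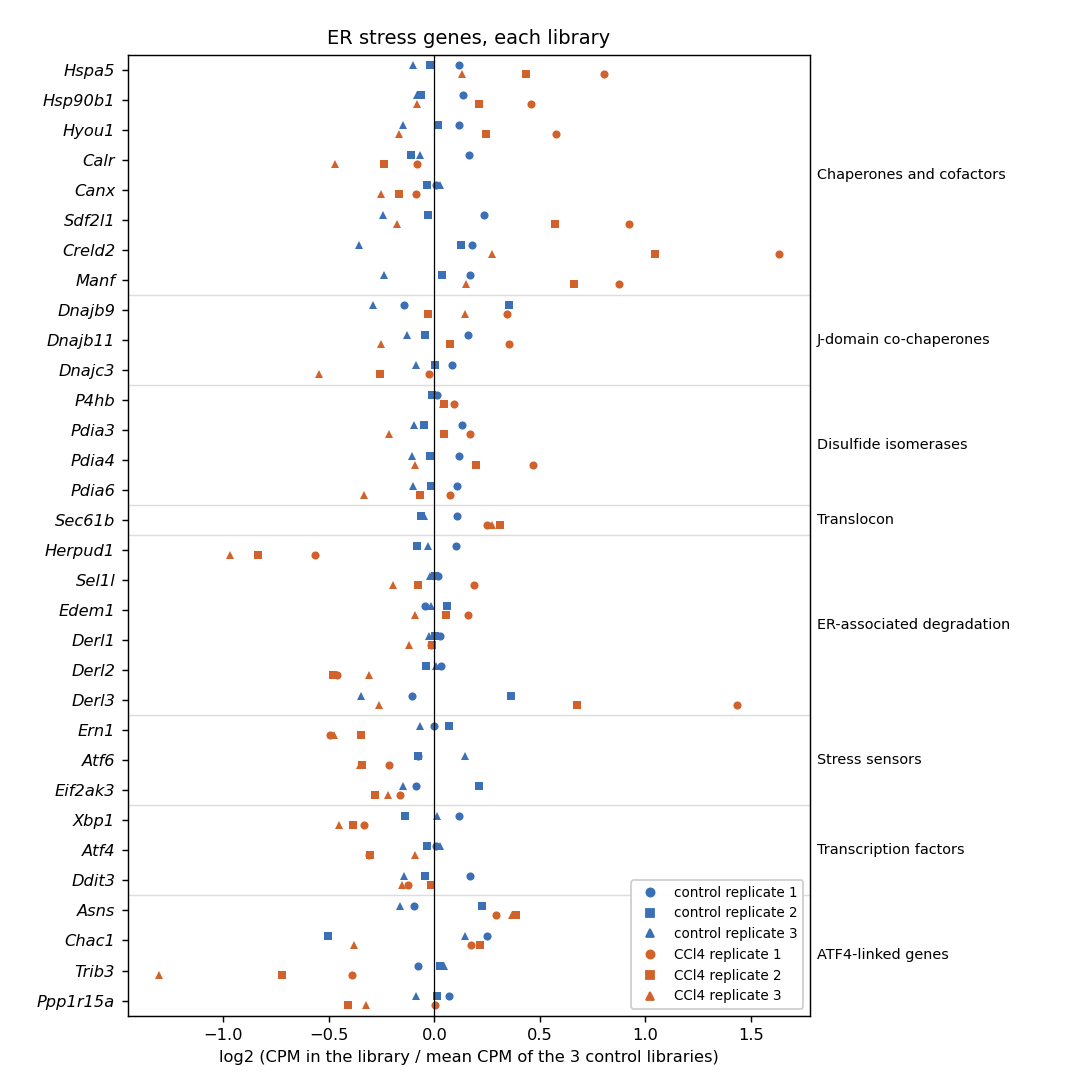
Each point is 1 library: the log2 ratio of its CPM to the mean of the 3 controls, for each of the 32 genes, grouped by role (control in blue, CCl4 in orange, symbols by replicate number). For Herpud1, Ern1, Xbp1 and Derl2 all CCl4 points lie left of all control points, while for the 8 chaperones and cofactors CCl4 replicate 1 is the rightmost and replicate 3 the leftmost CCl4 point, far apart for Creld2 and close together for Canx.

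Among the sensors, Ern1 (ENSMUSG00000020715), which encodes the kinase and nuclease IRE1, stood at 97.4, 102 and 92.9 CPM in control replicates 1, 2 and 3 and at 69.2, 76.7 and 70.2 CPM in the CCl4 ones. Every CCl4 library lay below every control, and the spread within each group was small. In log2 units Ern1 fell by 0.44 (SE 0.06), a 1.35-fold drop (95% interval 1.23 to 1.49, adjusted p = 4.82e-04). Atf6 (ENSMUSG00000026663), the sensor that is cut to become a transcription factor, was at 102, 102 and 118 CPM in controls and 92.3, 84.4 and 83.8 CPM after CCl4. Its groups did not overlap, and it fell by 0.30 (SE 0.07, adjusted p = 0.00887); with library size alone the value was -0.16 and the call was lost (adjusted p = 0.0921). Eif2ak3, which encodes the kinase PERK, stood at 24.1, 29.6 and 23.1 CPM and at 22.8, 21.1 and 22.0 CPM. The CCl4 libraries lay just under the lowest control, and the difference of -0.22 (SE 0.10) did not pass the test (adjusted p = 0.0971).

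Xbp1 (ENSMUSG00000020484), whose transcript IRE1 splices and whose product drives secretory capacity, was at 304, 255 and 283 CPM in controls and at 222, 215 and 205 CPM after CCl4. All CCl4 libraries were below all controls. Xbp1 fell by 0.39 (SE 0.07, adjusted p = 0.00243), or 1.31-fold (95% interval 1.17 to 1.47). Atf4 (ENSMUSG00000042406), whose protein is controlled largely at translation, was at 116, 113 and 118 CPM and at 93.4, 94.0 and 109 CPM. Its groups did not overlap, although CCl4 replicate 3 came close to the controls, and it fell by 0.23 (SE 0.07, adjusted p = 0.0217). That call did not survive leaving out control 1 or 3 (adjusted p = 0.0634 and 0.0649) or CCl4 library 1 or 2 (adjusted p = 0.0842 and 0.0914), and was also lost with upper quartile scaling or library size alone (adjusted p = 0.115 and 0.415). Ddit3, which encodes the pro-apoptotic factor CHOP, stood at 10.01, 8.65 and 8.06 CPM in controls and 8.17, 8.80 and 8.01 CPM after CCl4. These groups overlapped, and the difference of -0.10 (SE 0.11) did not pass (adjusted p = 0.529), with a 95% interval of -0.35 to 0.16. Ddit3 shares 68 exon bases with Mars on the opposite strand, and no source used here states whether counting used strand.

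The 4 genes linked to ATF4 did not share a direction. Trib3 (ENSMUSG00000032715), a pseudokinase that restrains ATF4 and AKT, was at 12.2, 13.1 and 13.3 CPM in controls and at 9.83, 7.81 and 5.21 CPM in the CCl4 libraries. All CCl4 values were below the controls, with replicate 3 the lowest. Trib3 fell by 0.76 (SE 0.20, adjusted p = 0.0168), but it missed the threshold when control 2 or 3 was left out (adjusted p = 0.0517 and 0.0575) and when CCl4 library 2 was (adjusted p = 0.0527). Asns, asparagine synthetase, was at 5.27, 6.59 and 5.04 CPM and at 6.91, 7.37 and 7.27 CPM. Its groups did not overlap, yet the difference of 0.35 (SE 0.13) missed the threshold (adjusted p = 0.0598); it was called without control replicate 2 (0.47, adjusted p = 0.0219), with upper quartile scaling (0.44, adjusted p = 0.0290) and with library size alone (0.50, adjusted p = 0.0173). Chac1, which degrades glutathione, stood at 3.19, 1.89 and 2.97 CPM and at 3.02, 3.12 and 2.06 CPM. These values overlapped fully (0.02, SE 0.25, adjusted p = 0.947), and the interval of -0.53 to 0.58 leaves room for a change in either direction. Ppp1r15a, the GADD34 subunit that reverses the PERK block on translation, was at 14.5, 14.0 and 13.0 CPM and at 13.9, 10.4 and 11.1 CPM, with overlap through CCl4 replicate 1 (-0.23, SE 0.12, adjusted p = 0.141).

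The largest called change of the set lay in ER-associated degradation, the route by which misfolded proteins leave the ER for the proteasome. Herpud1 (ENSMUSG00000031770), a membrane protein that organises the retrotranslocation complex, stood at 282, 248 and 257 CPM in controls and at 177, 147 and 134 CPM after CCl4. No CCl4 library came near the controls. Herpud1 fell by 0.78 (SE 0.10, adjusted p = 4.47e-04), or 1.72-fold (95% interval 1.46 to 2.02). Derl2 (ENSMUSG00000018442), a derlin of the same complex, was at 107, 102 and 106 CPM and at 76.3, 75.3 and 84.8 CPM. It fell by 0.42 (SE 0.06, adjusted p = 5.85e-04), with no overlap; 231 of the 8049 exon bases of Derl2 are shared with Mis12 on the opposite strand. Its paralog Derl1, in contrast, stood at 148 to 153 CPM in controls and 139 to 150 CPM after CCl4 (-0.05, SE 0.06, adjusted p = 0.530). Derl3, the stress-inducible derlin, had low and scattered counts, at 3.83, 5.30 and 3.23 CPM and at 11.1, 6.58 and 3.44 CPM. CCl4 replicates 1 and 2 were above the controls and replicate 3 within them (0.77, SE 0.45, adjusted p = 0.229). Sel1l, the adaptor of the HRD1 ligase, and Edem1, a mannosidase-like lectin that hands over glycoproteins, differed by -0.02 (SE 0.09) and 0.05 (SE 0.07), and neither passed (adjusted p = 0.877 and 0.646).

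Several chaperones and cofactors of BiP differed widely among the CCl4 libraries. Hspa5 (ENSMUSG00000026864), the master chaperone BiP, was at 984, 895 and 846 CPM in controls and at 1588, 1228 and 996 CPM after CCl4. All CCl4 libraries lay above the controls, replicate 3 only just. The log2 fold change was 0.48 (SE 0.16), which is 1.40-fold with a 95% interval of 1.07 to 1.83, and it missed the threshold (adjusted p = 0.0524). Hspa5 was called in 7 of 15 alternatives, among them edgeR with upper quartile scaling (adjusted p = 0.0336), library size alone (adjusted p = 0.0130) and a stricter filter (adjusted p = 0.0470). Creld2, a disulfide isomerase-like protein induced by ER stress, stood at 35.6, 34.3 and 24.5 CPM in controls and 97.7, 65.0 and 38.0 CPM after CCl4. Its groups did not overlap and the difference was the largest of the set, 1.09, but the SE of 0.40 was large too (adjusted p = 0.0975). Manf, a secreted BiP cofactor, was at 95.3, 87.0 and 71.8 CPM and at 155, 134 and 94.1 CPM, where CCl4 replicate 3 fell among the controls (0.59, SE 0.21, adjusted p = 0.0765). Sdf2l1, which keeps BiP clients from aggregating, stood at 28.7, 23.9 and 20.6 CPM and at 46.2, 36.3 and 21.6 CPM, again with CCl4 replicate 3 inside the control range (0.51, SE 0.31, adjusted p = 0.265).

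Differences were smaller for the larger chaperones. Hsp90b1, the ER form of HSP90 (GRP94), was at 729, 634 and 627 CPM in controls and at 911, 769 and 627 CPM after CCl4, a difference of 0.21 (SE 0.13, adjusted p = 0.244). Hyou1, the nucleotide exchange factor of BiP, was at 261, 243 and 217 CPM and at 358, 284 and 214 CPM (0.25, SE 0.19, adjusted p = 0.348). For both, CCl4 replicate 1 was above all controls and CCl4 replicate 3 just below them. The lectin chaperones had values in the other direction. Calr, calreticulin, stood at 761, 630 and 648 CPM in controls and 642, 576 and 490 CPM after CCl4 (-0.26, SE 0.11, adjusted p = 0.0947), with overlap. Its membrane-bound relative Canx, calnexin, stood at 493, 479 and 499 CPM and at 461, 436 and 412 CPM, without overlap (-0.17, SE 0.06, adjusted p = 0.0574). In the main edgeR fit 0 of the 8 chaperones and cofactors were called, with 5 at an unadjusted p under 0.05. DESeq2 called 3 higher (Hspa5, Creld2 and Manf), and limma-voom called these 3 higher and Canx lower.

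**Figure D2:**
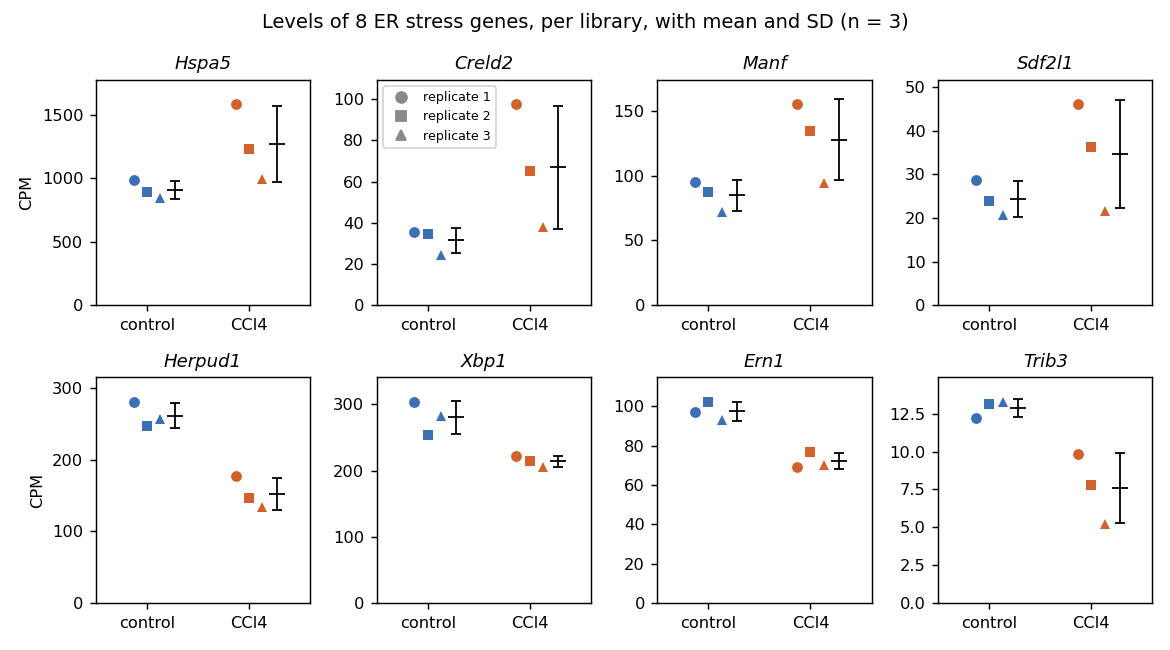
CPM in each library for 8 of the genes (vertical axes start at 0, symbols by replicate number, and the bar beside each group gives the mean and SD, n = 3). In the upper row (Hspa5, Creld2, Manf and Sdf2l1) the CCl4 libraries range from near the control level in replicate 3 to well above it in replicate 1, and in the lower row (Herpud1, Xbp1, Ern1 and Trib3) every CCl4 library lies below the controls.

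Of the J-domain co-chaperones, which hand clients to BiP, 0 of 3 were called in the main edgeR fit, DESeq2 or limma-voom. In the main fit, 0 had an unadjusted p under 0.05. Dnajb9 (ERdj4), a target of spliced XBP1 that also holds IRE1 inactive, stood at 69.6, 98.0 and 62.9 CPM in controls and 97.4, 75.3 and 85.1 CPM after CCl4. Its groups overlapped (0.16, SE 0.19, adjusted p = 0.545), and it was called only without control replicate 2 (0.37, adjusted p = 0.0347) among the alternatives run. Dnajb11 and Dnajc3 differed by 0.08 (SE 0.16) and -0.26 (SE 0.12), with adjusted p = 0.725 and 0.131. The disulfide isomerases were likewise called in 0 of 4 cases by the main edgeR fit, with 0 at an unadjusted p under 0.05, and in 0 by DESeq2 and limma-voom. P4hb, the founding protein disulfide isomerase and also a subunit of collagen prolyl hydroxylase, was the steadiest of them, at 1462, 1436 and 1447 CPM in controls and 1545, 1496 and 1491 CPM after CCl4. Although the groups did not overlap, the difference was 0.06 (SE 0.06, adjusted p = 0.431), with a 95% interval of -0.07 to 0.19; with library size alone it was 0.21 and called (adjusted p = 0.0159). Pdia4 stood at 327, 297 and 280 CPM and at 417, 345 and 283 CPM (0.21, SE 0.14, adjusted p = 0.266). Pdia3, which folds glycoproteins with the lectin chaperones, and Pdia6, which acts on IRE1, differed by 0.01 (SE 0.10) and -0.10 (SE 0.10), with adjusted p = 0.961 and 0.471. The translocon gene Sec61b (ENSMUSG00000053317), a subunit of the channel through which chains enter the ER, was at 43.2, 38.3 and 38.8 CPM in controls and 47.6, 49.8 and 48.4 CPM after CCl4. In the main edgeR fit it was the only member called higher, by 0.28 (SE 0.06, adjusted p = 0.00607), or 1.21-fold (95% interval 1.10 to 1.34). Hspa5 and other members were also called higher in some other edgeR settings with all libraries.

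The number of chaperones called in edgeR changed when 1 library was left out. Without CCl4 replicate 3, 9 of the 32 genes were called higher (20.8% of all genes tested there) and the same 7 as before lower (19.5%). The 9 were Sec61b with Hspa5 (0.63, adjusted p = 0.00314), Manf (0.77, adjusted p = 0.00333), Sdf2l1 (0.76, adjusted p = 0.0132), Hsp90b1 (0.34, adjusted p = 0.0131), Pdia4 (0.34, adjusted p = 0.0155), Derl3 (1.10, adjusted p = 0.0199), Hyou1 (0.42, adjusted p = 0.0217) and Creld2 (1.37, adjusted p = 0.0275). Thus edgeR called 6 of 8 chaperones and cofactors there, against 0 in the main fit with all libraries. All 6 were higher. With all libraries, DESeq2 had called 3 higher, and limma-voom 3 higher and 1 lower. Leaving out CCl4 replicate 1 did the opposite: 10 genes were then called lower (16.1% of all genes), Atf4 no longer among them, and Calr (-0.35, adjusted p = 0.0358), Canx (-0.21, adjusted p = 0.0449), Dnajc3 (-0.39, adjusted p = 0.0153) and Ppp1r15a (-0.36, adjusted p = 0.0268) joined, while Hspa5 stood at 0.30 (adjusted p = 0.0618). Within the CCl4 group, replicate 1 held the highest and replicate 3 the lowest value for 21 of the 32 genes, where 20.2% of all genes showed this pattern, and for 8 of 8 chaperones and 4 of 4 disulfide isomerases. Derl3 differed most, 3.24-fold between these 2 libraries, followed by Creld2 (2.57-fold) and Sdf2l1 (2.14-fold), whereas P4hb (1.04-fold) and Xbp1 (1.08-fold) barely differed. In controls, replicate 1 was the highest for 22 of the 32, where 31.0% of all genes showed this. Of the CCl4 libraries, replicate 3 had the highest plasma cell, macrophage (933 CPM), fibroblast (1283 CPM) and cholangiocyte (336 CPM) sums and the lowest hepatocyte sum (104970 CPM). Not every marker followed its sum. Of the macrophage markers, Cd68 and Itgam were lowest in replicate 3, Ctss lay between and the others were highest. Of the fibroblast and stellate markers, Col1a1 and Col1a2 were lowest in replicate 3, Lrat lay between and the others were highest. Of the plasma cell markers, Ighm and Prdm1 were lowest in replicate 3, Irf4 and Pou2af1 lay between and the others were highest. Of the hepatocyte markers, Fga, Fgb, Apoa1, Apoh and Asgr1 were lowest in replicate 3, Ttr and Cps1 were highest, and Alb, Apob and Serpinc1 lay between. Fga stood at 6996, 6116 and 3662 CPM in CCl4 replicates 1 to 3, and Ttr at 5208, 5384 and 5814 CPM. Of the cholangiocyte markers, Spp1, Epcam and Cldn7 were highest in replicate 3, Krt7 and Sox9 lowest, and Krt19 between. Proliferation sums were 151, 166 and 79.8 CPM in CCl4 replicates 1, 2 and 3. The part of these cell types in the spread was not tested.

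**Figure D3:**
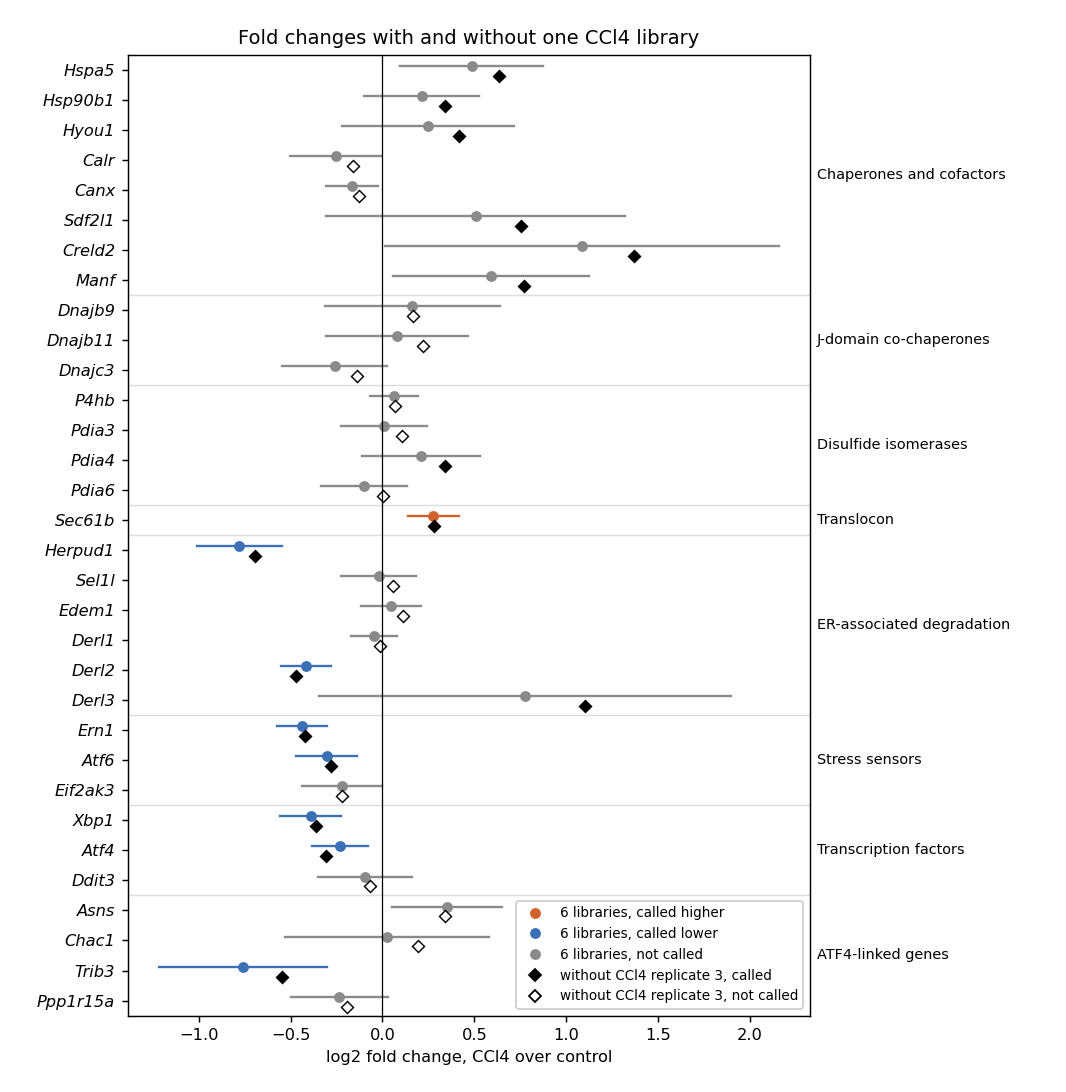
Log2 fold changes (CCl4 over control) from all 6 libraries (circles with 95% intervals, coloured by call) and without CCl4 replicate 3 (diamonds without intervals, filled where called). Without that library Hspa5, Manf, Sdf2l1, Creld2, Hsp90b1, Hyou1, Pdia4 and Derl3 become called, and the 7 genes called lower stay to the left of 0.

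Levels per length put the set in order (CPM per 1000 exon bases of the GENCODE M21 gene model, all isoforms merged, so that genes with long alternative ends read too low). In controls P4hb led with 506 ± 4.56 (SD, n = 3), followed by Calr (236 ± 24.7), Hspa5 (215 ± 16.6), Hsp90b1 (165 ± 14.2) and Pdia3 (161 ± 13.7). Calr and Hspa5 lay within their combined spread, as did Hsp90b1 and Pdia3. After CCl4, P4hb remained first at 528 ± 10.5, and Hspa5 at 300.5 ± 70.6 stood above Calr at 198 ± 26.6. Xbp1, at 86.4 ± 7.68 in controls, was the most abundant transcription factor and Atf4 the next (49.2 ± 1.09), while the sensors were low (Ern1 11.9 ± 0.583, Atf6 11.6 ± 1.06, Eif2ak3 4.25 ± 0.582). Ern1 and Atf6 did not differ beyond their spread. Derl3 (2.07 ± 0.532), Asns (2.06 ± 0.307) and Chac1 (1.64 ± 0.425) were the lowest, within each other's spread.

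The genes that share a promoter motif are set side by side here. Among the 8 with an ERSE, the log2 fold changes were 1.09 for Creld2, 0.77 for Derl3, 0.48 for Hspa5 and 0.21 for Hsp90b1. They were -0.10 for Pdia6, -0.17 for Canx and -0.26 for both Calr and Dnajc3. None of the 8 was called in the main edgeR fit, where 4 had an unadjusted p under 0.05. Among other edgeR settings with all libraries, some called Hspa5, Hsp90b1 or Creld2 higher and some called Calr, Canx or Dnajc3 lower. DESeq2 called Hspa5 and Creld2, and limma-voom these and Canx. The 4 with an ATF4 core match had values of -0.78 (Herpud1), -0.76 (Trib3), 0.02 (Chac1) and 0.35 (Asns).

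The rest of the ER machinery was read through lists of other genes, chosen by function. Beside each count stand the shares of all genes called higher and lower, 21.2% and 20.1% with TMM, 26.3% and 14.0% with upper quartile scaling and 31.0% and 10.8% with library size alone, so that calls over all genes also turn toward higher with the other scalings. Of 24 genes of protein entry (signal recognition, translocon and signal peptidase), 8 were higher and 2 lower (median 0.10); with upper quartile scaling 12 were higher and 0 lower, and with library size alone 18 and 0. Srprb, a subunit of the signal recognition particle receptor, rose by 0.54 (SE 0.08, adjusted p = 5.43e-04), from 28.5 to 30.8 CPM in controls to 40.4 to 47.8 CPM. Ssr3, of the translocon-associated complex, rose by 0.33 (SE 0.06, adjusted p = 0.00133), and Sec63, which recruits BiP to the channel, fell by 0.19 (SE 0.06, adjusted p = 0.0261). Of 17 genes of N-glycosylation and glycoprotein export, 8 were higher and 1 lower (median 0.20), against 8 and 0 with upper quartile scaling and 10 and 0 with library size alone. Ostc, a subunit of the oligosaccharyltransferase, was at 50.2, 54.9 and 50.8 CPM in controls and 92.7, 88.6 and 93.4 CPM after CCl4. It rose by 0.82 (SE 0.06, adjusted p = 1.03e-05). Ganab, a subunit of glucosidase II, fell by 0.21 (SE 0.06, adjusted p = 0.0185), and Lman1, a cargo receptor, stood at -0.06 (adjusted p = 0.404).

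Of 33 other folding and retention genes 31 were tested, 14 of them higher and 3 lower (median 0.13), against 17 and 2 with upper quartile scaling and 20 and 1 with library size alone. Fkbp10, a prolyl isomerase of procollagen, rose from 0.954 to 1.38 CPM in controls to 3.76 to 4.62 CPM (1.91, SE 0.20, adjusted p = 1.09e-04). Serpinh1, the collagen chaperone HSP47, rose by 1.63 (SE 0.15, adjusted p = 1.86e-04), in libraries where the fibroblast sum rose as well. Sil1, a nucleotide exchange factor of BiP, fell by 0.43 (SE 0.06, adjusted p = 6.06e-04), and Qsox1, a sulfhydryl oxidase, stood at -0.13 (adjusted p = 0.166). Of 24 other degradation genes 2 were higher and 8 lower (median -0.09), and this split turned with the scaling, as that of all genes did, to 4 and 3 with upper quartile scaling and to 8 and 2 with library size alone. Vcp, the ATPase that pulls proteins out of the ER, fell by 0.33 (SE 0.06, adjusted p = 0.00249), and Ube2g2, a ubiquitin-conjugating enzyme of this route, rose by 0.36 (SE 0.07, adjusted p = 0.00215).

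Of 34 other genes listed as ATF4 targets, 12 were higher and 4 lower (median 0.09), against 15 and 2 with upper quartile scaling and 15 and 1 with library size alone. Aldh18a1, which starts proline synthesis, went from 1.38 to 2.16 CPM in controls to 5.35 to 7.02 CPM (1.79, SE 0.20, adjusted p = 1.39e-04), and Psat1, of serine synthesis, from 0.973 to 1.65 CPM to 4.54 to 6.68 CPM (1.94, SE 0.24, adjusted p = 2.47e-04). Slc7a11, the cystine carrier, rose from a low level, 0.318 to 0.799 CPM in controls, to 2.47 to 3.18 CPM (2.43, SE 0.31, adjusted p = 2.85e-04). Aars, alanyl-tRNA synthetase, fell by 0.38 (SE 0.06, adjusted p = 6.12e-04), and Cth, cystathionine lyase, was not called (0.36, adjusted p = 0.147). The rises in this list stood beside a lower Atf4 transcript and a lower Trib3 in the same libraries. Of 23 other genes of stress signalling 21 were tested, 5 higher and 4 lower (median -0.03), against 6 and 2 with upper quartile scaling and 8 and 1 with library size alone. Bax, a pro-apoptotic pore protein, rose by 0.61 (SE 0.08, adjusted p = 3.40e-04). Creb3l3, a hepatocyte relative of ATF6, was at 286 to 309 CPM in controls and 206 to 226 CPM after CCl4 and fell by 0.48 (SE 0.06, adjusted p = 2.86e-04). Tmbim6, an abundant ER membrane protein that restrains IRE1, stood at -0.09 (adjusted p = 0.267). Slc7a11, Psat1 and Serpinh1 were named after their values were seen.

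**Figure D4:**
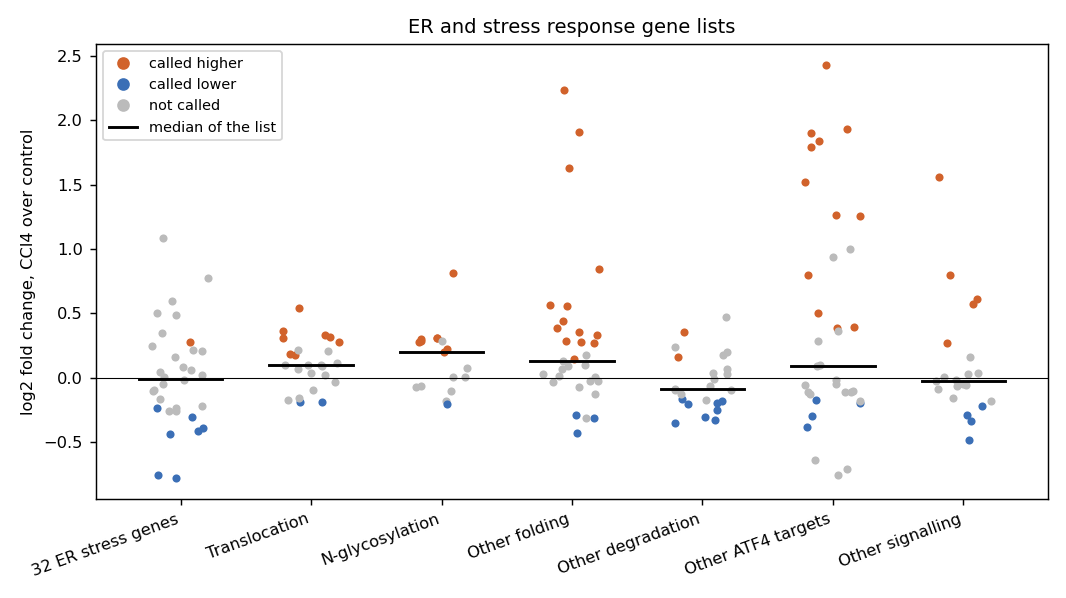
Log2 fold changes (CCl4 over control) of the 32 genes and of 6 lists of other ER and stress response genes; each point is 1 tested gene, coloured by its call, and bars give the median. The medians run from -0.09 for other degradation genes to 0.20 for N-glycosylation, and the points highest above 0 are among other folding genes and other ATF4 targets.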

How the data were processed

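Messenger RNA of 6 liver libraries was sequenced. Per the series' design text, reads were filtered for adapters and quality and aligned with HISAT2; featureCounts is named in the submitters' processing notes. Their versions, the genome build, the annotation and the strand setting: not given in the sources used here. The authors deposited a table of raw gene counts. Columns were mapped to samples by name, and 52083 of 55359 Ensembl identifiers received a symbol from the GENCODE M21 table.

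The main test was that of edgeR 4.0.16 under R 4.3.3 (filterByExpr, TMM, robust glmQLFit and glmQLFTest, Benjamini-Hochberg adjustment over 15579 genes). CPM values use TMM-scaled library sizes. Standard errors are the log2 fold change over the square root of F. Alternatives used DESeq2 1.42.0, limma 3.58.1 (voom), other scalings and filters, a minimum fold change, a replicate term and each library left out. The test was checked on simulated counts with few changed genes, as many up as down. Such counts cannot check the choice of scaling for these data. No 2 libraries of a group agreed within counting error (chi-square per gene 5.26 to 23.4), least of all those paired with CCl4 replicate 3. Intervals cover counting and replicate spread of these libraries only.

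The members, the gene lists and the rule for named genes (all 32, and from each other list the called gene of smallest adjusted p in each direction and the gene of highest mean CPM) were chosen with earlier results of these data known. One gene that the rule names is not reported here. Motifs were chosen after the values were seen.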

Additional observations from a re-analysis of the deposited data

How the results depend on the processing

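Over 15 alternatives for each of the 32 genes, 405 of the log2 fold changes kept their direction and their side of the threshold, 38 passed it where they had not, 18 no longer passed it and 19 changed sign. Genes called higher numbered 3 with upper quartile scaling, 7 with library size alone, 2 with the stricter filter (22.2% of all genes), 4 in DESeq2, 4 in limma-voom, 0 against a minimum fold change of 1.5, and 1 to 9 with single libraries left out (16.9 to 20.8% of all genes). Genes called lower numbered 0 against that minimum, where 2.44% of all genes were called lower and 10.8% in either direction. Of the 32, 1 had an unadjusted p under 0.05 there. Leaving out single libraries gave 5 to 10 genes called lower (15.3 to 19.5% of all genes). Against that minimum, Herpud1 had the smallest adjusted p, 0.0952. Called genes of the lists there were 0 for protein entry, 1 for N-glycosylation, 3 for other folding, 0 for other degradation, 7 for ATF4 targets and 1 for signalling; library size alone gave 18 for protein entry. With single libraries left out, protein entry had 5 to 10 calls and other degradation 5 to 10. The cause was not tested.

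No gene that changed sign was called by edgeR with TMM scaling and all libraries, but Edem1 was called higher with library size alone (0.191, adjusted p = 0.0431). With no filter Pdia3 was at -0.00526. With library size alone Pdia6 was at 0.0431, Sel1l at 0.123, Derl1 at 0.0993 and Ddit3 at 0.0496, and with upper quartile scaling Sel1l was at 0.0658 and Derl1 at 0.0395. With single libraries left out, values ran from -0.0757 to 0.221 for Dnajb11, -0.0765 to 0.107 for Pdia3, -0.193 to 0.00371 for Pdia6, -0.133 to 0.0599 for Sel1l, -0.0122 to 0.110 for Edem1 and -0.178 to 0.192 for Chac1.

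The groups share replicate numbers, but over all genes tested same-numbered libraries deviated together only weakly (correlations of 0.05, 0.0040 and 0.06). Control replicates 1 and 3 each correlated best with the CCl4 library of their own number, and control replicate 2 with CCl4 replicate 1. As these correlations were weak, the numbers were not taken as pairs in the main fit. Among the 8 chaperones and cofactors, however, replicate 1 was the highest for 7 in controls and for 8 after CCl4 (31.0% and 31.6% of all genes). Whether same-numbered libraries share a source was not tested. With the replicate number as a block, 5 genes were called higher (Sec61b, Hspa5, Creld2, Manf and Sdf2l1) and 9 lower (41.2% of all genes in either direction), which were the 7 of the fit without it with Calr (adjusted p = 0.0157) and Dnajc3 (adjusted p = 0.0177). Of the 8 chaperones and cofactors, 8 had an unadjusted p under 0.05 in edgeR with the block, against 5 in the main fit. Chac1 had the lowest mean level of the 32, 2.71 CPM, which limits its precision.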

Other observations

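Ratios of 2 transcripts within a library do not depend on the scaling, and they were looked at after the values were seen. Hspa5 over Herpud1, both targets of the unfolded protein response, gave controls (replicates 1 to 3) 3.50, 3.61 and 3.30, and gave CCl4 libraries 8.97, 8.38 and 7.44, where CCl4 replicate 3 lay close to the other CCl4 libraries. Hspa5 over Xbp1 was 3.23, 3.52 and 2.99 in controls and 7.15, 5.72 and 4.86 after CCl4. Hspa5 over Calr was 1.29, 1.42 and 1.31 in controls and 2.47, 2.13 and 2.03 after CCl4. For Herpud1 and Xbp1 the lack of overlap follows from the levels themselves, since Hspa5 lay above and these genes below all controls in every CCl4 library, so the ratios are a description only. With 3 libraries a group, no exact 2-sided rank or permutation test of a single ratio can go below 0.10, so no p is given.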
